A study of Mus musculus with 12 samples.

Results

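The 9 genes described here are 4 keratins (Krt7, Krt8, Krt18 and Krt19), 3 claudins (Cldn4, Cldn6 and Cldn7), Perp and Tgm1. They were picked by symbol from the 24495 genes of the read count table, the keratins and claudins as genes of simple epithelium, and Perp and Tgm1 because both were higher in the knockdown line. All 9 were among the 15532 genes that passed the filter on low counts. The table holds RNA-seq counts of CCE-Nanog-GFP mESCs, a mouse embryonic stem cell line with a GFP reporter of Nanog. One line carries a scrambled shRNA (shSC) and the other an shRNA against Ctsl, the gene of the protease cathepsin L (shCTSL). Both were infected with lentivirus and selected with puromycin, and each was sequenced undifferentiated with LIF (Day 0) and as embryoid bodies (EBs) after 2 and 4 days in all-trans retinoic acid without LIF (Day 2 and Day 4). Each of the 6 groups has 2 biological replicates, which makes 12 libraries. A single shCTSL line was sequenced, so an effect of the knockdown and a property of that line cannot be told apart. EBs are a mixture of cell types, and in bulk RNA fewer cells of a type and less RNA per cell cannot be told apart.

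Keratins are intermediate filament proteins that polymerize only as pairs of a type II chain (Krt7, Krt8) and a type I chain (Krt18, Krt19), and Krt8 with Krt18 is the first keratin pair of the early embryo, in trophectoderm and then in endoderm. Claudins are membrane proteins with 4 transmembrane segments that form the strands of tight junctions, where they seal the space between epithelial cells. Perp is a membrane protein of desmosomes and a p53 target, and Tgm1 encodes transglutaminase 1, which cross-links proteins of the cornified envelope in the epidermis.

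In mm9 the genes lie on 6 chromosomes, and the GENCODE M1 annotation has no gene that overlaps any of them. Krt7 (ENSMUSG00000023039.9) spans chr15:101241474-101260744 on the plus strand. Krt8 spans chr15:101827142-101834773 on the minus strand and Krt18 spans chr15:101858647-101862457 on the plus strand. These genes of a filament pair are each other's next protein-coding neighbours, 23874 bp apart. Krt19 is at chr11:100002124-100009979 on the minus strand, within the type I keratin cluster. Cldn4 is at chr5:135420996-135422804 (minus), next to Cldn3 at a distance of 39280 bp. Cldn6 is at chr17:23816332-23819413 (plus), with Cldn9 on the opposite strand 139 bp away. Cldn7 is at chr11:69778281-69781387 (plus), Perp at chr10:18564877-18576879 (plus) and Tgm1 at chr14:56318846-56332329 (minus). The strand setting of the counting was not given in the sources used here.

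RefSeq promoter windows of GRCm38.p6, which run from 250 bases before to 50 bases after a transcription start, were matched by symbol for 7 of the 9 genes, with 9 windows in all. Krt19 and Perp had no entry. The windows of the Krt8 and Krt18 pair, of the claudins Cldn4 and Cldn6 and of Tgm1 are shown, because these genes moved together or apart over differentiation. Capitals mark every match, on either strand, to TATAAA (a core promoter box), AGGTCA (the core element of nuclear receptors, such as those for retinoic acid), CAGGTG (an E-box), GGGCGG (GC box), TGANTCA (AP-1) and AACCNGTT (grainyhead). They lie at chr15:102004293-102004592 (minus) for Krt8, chr15:102027966-102028265 (plus) for Krt18, chr5:134946885-134947184 (minus) for Cldn4, chr17:23679115-23679414 (plus) for Cldn6 and chr14:55713443-55713742 (minus) for the first of the Tgm1 windows.
Krt8: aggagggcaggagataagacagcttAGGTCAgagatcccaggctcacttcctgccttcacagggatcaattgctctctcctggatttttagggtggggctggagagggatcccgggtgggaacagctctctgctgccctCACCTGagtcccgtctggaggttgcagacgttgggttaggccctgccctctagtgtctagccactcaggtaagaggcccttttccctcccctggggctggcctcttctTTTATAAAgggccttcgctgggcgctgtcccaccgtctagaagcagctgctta
Krt18: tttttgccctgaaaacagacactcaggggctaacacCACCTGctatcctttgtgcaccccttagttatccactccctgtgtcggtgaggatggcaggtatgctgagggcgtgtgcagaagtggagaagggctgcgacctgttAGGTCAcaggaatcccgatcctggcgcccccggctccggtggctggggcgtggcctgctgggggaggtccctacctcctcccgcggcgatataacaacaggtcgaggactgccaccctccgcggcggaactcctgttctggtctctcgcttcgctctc
Cldn4: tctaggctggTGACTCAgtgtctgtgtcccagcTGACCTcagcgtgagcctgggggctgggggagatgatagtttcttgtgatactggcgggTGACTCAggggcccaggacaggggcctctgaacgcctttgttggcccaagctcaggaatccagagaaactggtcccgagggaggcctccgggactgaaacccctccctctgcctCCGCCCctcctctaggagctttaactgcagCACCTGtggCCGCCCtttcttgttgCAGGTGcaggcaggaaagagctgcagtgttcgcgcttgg
Cldn6: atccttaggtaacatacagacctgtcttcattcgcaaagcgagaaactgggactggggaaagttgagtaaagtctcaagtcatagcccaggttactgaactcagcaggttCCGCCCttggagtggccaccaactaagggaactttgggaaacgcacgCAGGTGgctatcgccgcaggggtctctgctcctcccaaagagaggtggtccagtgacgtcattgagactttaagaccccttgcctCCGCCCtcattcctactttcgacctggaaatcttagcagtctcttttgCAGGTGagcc
Tgm1: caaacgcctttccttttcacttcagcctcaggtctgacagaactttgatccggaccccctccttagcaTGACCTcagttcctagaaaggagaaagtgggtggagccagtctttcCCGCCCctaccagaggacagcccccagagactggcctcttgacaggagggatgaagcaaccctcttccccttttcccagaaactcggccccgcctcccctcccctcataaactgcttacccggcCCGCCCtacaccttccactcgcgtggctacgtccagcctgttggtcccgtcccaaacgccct

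AGGTCA occurred in 7 of the 9 windows, from 6 of the 7 genes (all but Cldn6), against 16.3% of all 32851 RefSeq windows. CAGGTG occurred in 6 of 9 windows, from 6 of 7 genes (all but Tgm1), against 20.2% of windows. GGGCGG was found in 5 of 9 windows, from 5 of 7 genes (not Krt8 or Krt18), against 35.7% of windows. Krt8 alone had TATAAA (13.6% of windows), where the matches on the 2 strands overlap and are printed as 1 run of capitals. Cldn4 alone had TGANTCA (7.81% of windows), with 2 matches. AACCNGTT was in none of the 7 genes' windows and in 2.09% of all windows. Cldn7 and Tgm1 have 2 windows each in these counts, and a match of letters is a description, not a binding site.

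The libraries hold 11171111 to 27155553 counted reads, and the ribosomal gene Rn45s takes 0.170 to 3.43% of them. The highest share was in replicate 1 of shCTSL Day 2, against 0.553% in replicate 2 of that group. Values below are normalized CPM, that is counts scaled by the library totals and by TMM factors, with replicate 1 before replicate 2. Ctsl, the gene targeted, was at 137 and 147 in shSC against 39.2 and 37.5 in shCTSL at Day 0, at 369 and 391 against 211 and 155 at Day 2, and at 484 and 423 against 257 and 253 at Day 4. It was lower in both shCTSL libraries on every day, by −1.89 on the log2 scale at Day 0 (adjusted p = 0.00246 by the quasi-likelihood test of edgeR), −1.06 at Day 2 (0.0342) and −0.83 at Day 4 (0.0896, not past the threshold). The shCTSL Day 2 libraries stood apart from each other. Their counts differed with a chi-square of 130 per degree of freedom, against 2.64 to 10.1 in the other 5 groups, and they received quality weights of 0.120 and 0.118 in limma-voom, against 1.13 to 2.13. Embryonic stem cell markers fell as labelled, with a summed level of 5527 to 5633 normalized CPM at Day 0 and 492 to 551 at Day 4 in shSC, and of 5012 to 5161 and 474 to 526 in shCTSL.

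The question of the first comparison was how the 9 genes moved as mESCs differentiated. All 7 keratins and claudins rose between Day 0 and Day 4 in both lines, and Perp and Tgm1 fell in both. Krt19 rose most in shSC (17.6-fold), followed by Krt18 (10.5-fold), Krt7 (6.63-fold), Krt8 (5.03-fold), Cldn6 (3.85-fold), Cldn7 (3.49-fold) and Cldn4 (1.83-fold), whereas Tgm1 fell 16.8-fold and Perp 2.67-fold. The threshold for a call was an adjusted p under 0.05 together with a difference of 1.5-fold or more, and for Day 4 against Day 0 this rule called 32.1% of all genes higher and 28.7% lower in shSC, and 32.3% higher and 27.6% lower in shCTSL. Calls were common among all genes over these days, so sizes and order are described below. The Day 2 and Day 4 comparisons of a line share its Day 0 libraries.

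**Figure D1:**
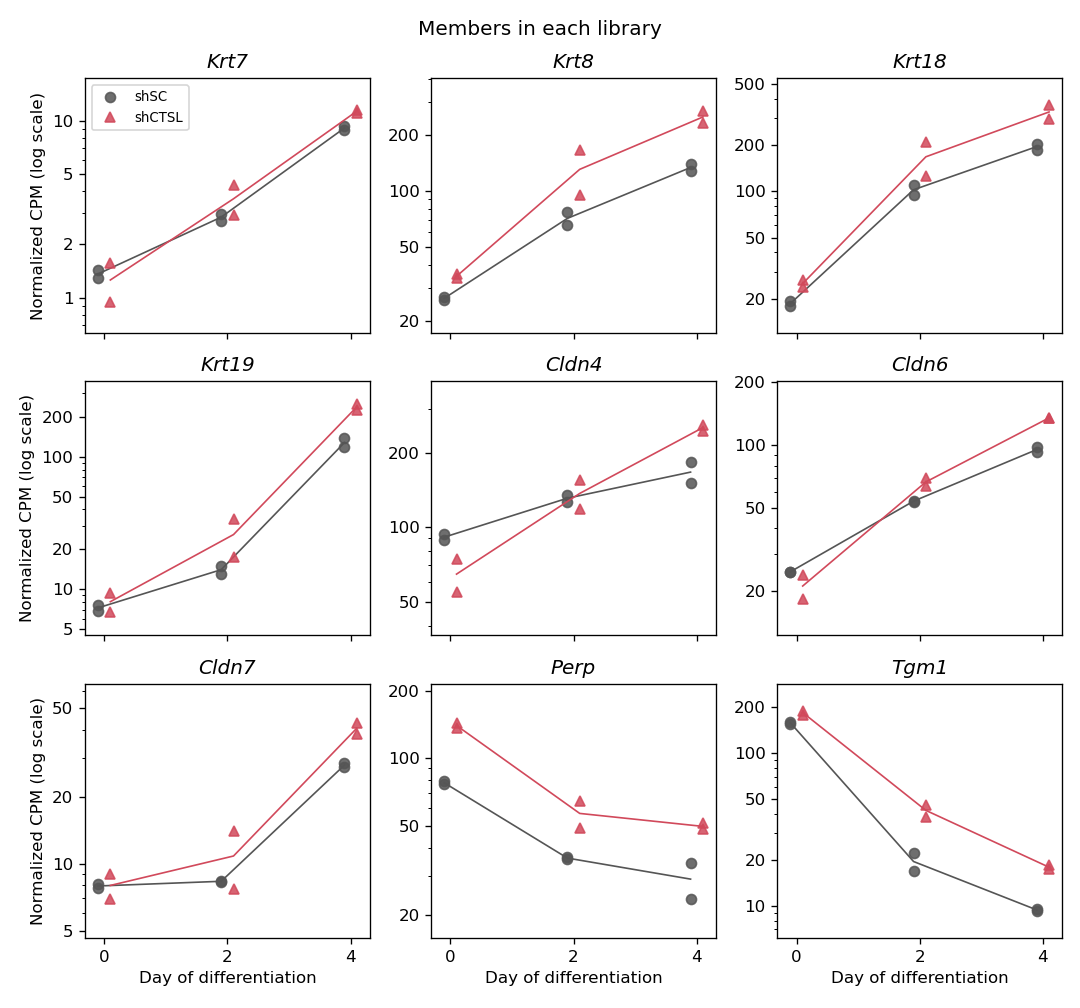
Normalized CPM (log axis) of the 9 genes by day of differentiation, with 1 point per library, shSC in grey circles and shCTSL in red triangles, and lines through the mean of the 2 libraries of each group. The keratins and claudins climb from left to right and Perp and Tgm1 descend, and Krt19 in shSC goes from 7.62 and 6.88 to 117 and 138.

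Among the type II keratins, Krt8 stood at 26.0 and 27.1 normalized CPM in shSC at Day 0, at 77.2 and 65.3 at Day 2 and at 139.6 and 127.6 at Day 4. In shCTSL it went from 35.7 and 34.0 through 165.5 and 95.6 to 231.0 and 267.8. The 3 days did not overlap in either line, although the shCTSL libraries of Day 2 were far apart. Its log2 fold change at Day 4 against Day 0 was 2.33 ± 0.23 (SE) in shSC (adjusted p = 7.63e-06) and 2.84 ± 0.23 in shCTSL (2.13e-06). Krt7, which marks ductal and other simple epithelia, was the least abundant, with 1.30 and 1.43 in shSC at Day 0, 2.99 and 2.71 at Day 2 and 8.84 and 9.36 at Day 4. In shCTSL it read 1.57 and 0.948, then 4.31 and 2.94, then 11.6 and 11.1. Each day lay above the one before in both lines, by 2.73 ± 0.25 (4.75e-06) and 3.12 ± 0.26 (2.5e-06) over the 4 days, but on counts as low as 9 reads in a Day 0 library.

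Among the type I keratins, Krt18, the partner of Krt8, was at 19.2 and 18.0 in shSC at Day 0, at 109.5 and 95.0 at Day 2 and at 204.2 and 186.0 at Day 4. In shCTSL it rose from 26.4 and 23.8 to 208.6 and 126.5 and then to 294.4 and 361.1. On the log2 scale most of its rise was complete by Day 2, when the change from Day 0 was 2.46 ± 0.22 in shSC (6.37e-06) and 2.73 ± 0.22 in shCTSL (3.13e-06), out of 3.39 ± 0.23 (5.8e-07) and 3.70 ± 0.23 (3.61e-07) by Day 4. In normalized CPM its mean still went from 102 at Day 2 to 195 at Day 4 in shSC, and from 168 to 328 in shCTSL. Krt19, a type I keratin without the usual tail domain, behaved otherwise, with 7.62 and 6.88 in shSC at Day 0, only 15.0 and 13.1 at Day 2, and 117 and 138 at Day 4. Its shCTSL values were 9.40 and 6.74, then 34.1 and 17.7, then 226 and 248. The steep part of its rise fell between Day 2 and Day 4, at 3.18 ± 0.27 on the log2 scale in shSC (2.7e-05) and 3.20 ± 0.27 in shCTSL (2.75e-05). The Krt19 call at Day 2 in shSC (0.96 ± 0.28, adjusted p = 0.0130) rested on 2 libraries: adjusted p was 0.0668 without replicate 2 of shSC Day 0 and 0.0662 without replicate 1 of shSC Day 2.

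Because keratins pair, the balance of chains was computed from normalized CPM per kilobase of the longest protein-coding transcript (1805 bases for Krt8, 1400 for Krt18, 1576 for Krt19 and 4094 for Krt7). Krt8 over Krt18 was 1.05 and 1.16 in shSC at Day 0, 0.547 and 0.533 at Day 2, and 0.530 and 0.532 at Day 4. In shCTSL it was 1.05 and 1.11, then 0.615 and 0.586, then 0.609 and 0.575. By these lengths the pair was near parity at Day 0 in both lines. The ratio was lower from Day 2 on, with no overlap between Day 0 and the later days. Its level depends on the lengths used and on reads lost to the mapping quality filter, so only its change over days is read here. The summed type II over type I level went from 0.793 and 0.890 through 0.496 and 0.483 to 0.361 and 0.331 in shSC, and from 0.811 and 0.897 through 0.544 and 0.529 to 0.370 and 0.364 in shCTSL. Krt19 made up 14.5 and 13.4% of the 4 keratins in shSC at Day 0, 7.25 and 7.37% at Day 2 and 24.8 and 29.8% at Day 4. Its share was thus lowest at Day 2 and highest at Day 4, also in shCTSL (13.3 and 10.6%, then 8.21 and 7.22%, then 29.6 and 27.8%). The summed keratin level per kilobase was 33.3 and 32.6 in shSC at Day 0, 131 and 113 at Day 2, and 299.7 and 293 at Day 4. These ratios are descriptions without a test.

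Of the claudins, Cldn4, which tightens the paracellular barrier, was already abundant in mESCs, with 88.4 and 93.7 normalized CPM in shSC at Day 0, 134.7 and 126.9 at Day 2 and 183.3 and 150.2 at Day 4. In shCTSL it started at 74.4 and 54.8 and reached 154.8 and 118.7 at Day 2 and 245.2 and 259.2 at Day 4. The days did not overlap in either line, but the shCTSL line started below shSC and ended above it. The log2 fold change over 4 days was 0.87 ± 0.17 in shSC (adjusted p = 0.00112) and 1.96 ± 0.18 in shCTSL (4.65e-06). At Day 2 the shSC value of 0.52 ± 0.17 (0.0212) was under the fold threshold.

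Cldn6, a claudin of embryonic epithelia, was at 24.9 and 24.7 in shSC at Day 0, 53.7 and 54.3 at Day 2 and 98.3 and 92.4 at Day 4. The shCTSL values were 23.9 and 18.4, then 69.8 and 63.7, then 135.4 and 135.2. The replicates of shSC lay close together, and the gene rose at each step in both lines, by 1.94 ± 0.13 (5.08e-07) and 2.67 ± 0.13 (9.01e-08) over the 4 days. Cldn7, a claudin that also lies along the lateral membrane, was flat at first in shSC, with 8.08 and 7.81 at Day 0, 8.37 and 8.32 at Day 2 and 28.2 and 27.3 at Day 4. In shCTSL it was at 9.03 and 6.95, then 14.0 and 7.70, then 38.3 and 43.0. Its Day 2 value did not pass the test in shSC (0.07 ± 0.25, adjusted p = 0.814) or in shCTSL (0.41 ± 0.25, 0.173), where Day 0 and Day 2 overlapped. The shCTSL value depended on the library, at −0.03 without replicate 1 of Day 2 and at 0.79, past the threshold, without replicate 2. From Day 2 to Day 4 Cldn7 rose by 1.73 ± 0.23 (0.000409) in shSC and 1.92 ± 0.23 (0.000246) in shCTSL. Per kilobase, Cldn4 made up 68.4 and 69.9% of the 3 claudins in shSC at Day 0 and 54.0 and 50.4% at Day 4, and in shCTSL 64.5 and 63.4% and then 53.3 and 54.0%.

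Perp and Tgm1 ran the other way. Perp was at 76.5 and 78.9 in shSC at Day 0, 35.6 and 36.2 at Day 2 and 34.2 and 23.7 at Day 4, and at 143 and 136.5, then 64.5 and 49.0, then 48.2 and 51.2 in shCTSL. Most of its fall came by Day 2, with −1.11 ± 0.17 on the log2 scale in shSC (0.000284) and −1.30 ± 0.17 in shCTSL (9.43e-05). The later step did not pass the test in shSC (−0.31 ± 0.17, 0.221), where both Day 4 libraries lay below both Day 2 libraries, or in shCTSL (−0.19 ± 0.17, 0.439), where Day 2 and Day 4 overlapped. Tgm1 was at 160.0 and 156.6 in shSC at Day 0, 22.1 and 16.9 at Day 2 and 9.59 and 9.22 at Day 4. In shCTSL it fell from 190.7 and 179.2 to 46.1 and 38.4 and then to 18.5 and 17.4. All 3 days were apart in both lines, and the fall over 4 days was −4.07 ± 0.16 (1.86e-08) in shSC and −3.37 ± 0.15 (4.9e-08) in shCTSL. Both genes were picked for being higher in shCTSL, and the shCTSL libraries that served for that choice also enter these changes.

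Counted together, 7 of the 9 genes were called at Day 2 against Day 0 in shSC, 5 higher (background 29.3% of all genes) and 2 lower (25.3%). In shCTSL 8 were called, 6 higher (30.9%) and 2 lower (24.6%). At Day 4 against Day 0 all 9 were called in each line, 7 higher (32.1% of all genes in shSC and 32.3% in shCTSL) and 2 lower (28.7% and 27.6%). From Day 2 to Day 4 the background was lower, and 7 of the 9 were called in shSC, 6 higher (11.4% of all genes) and 1 lower (12.4%), and 8 in shCTSL, 7 higher (11%) and 1 lower (12.4%). The calls of Krt8 and Krt18 in this last step were near the threshold. In shSC, Krt8 was at 0.91 ± 0.21 (adjusted p = 0.00962) and Krt18 at 0.93 ± 0.21 (0.00688), and without replicate 2 of shSC Day 2 their adjusted p was 0.0874 and 0.0673, and without replicate 1 of shSC Day 4 it was 0.0692 and 0.0547. In shCTSL, without replicate 2 of Day 4, it was 0.0607 for Krt8 and 0.0516 for Krt18.

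**Figure D2:**
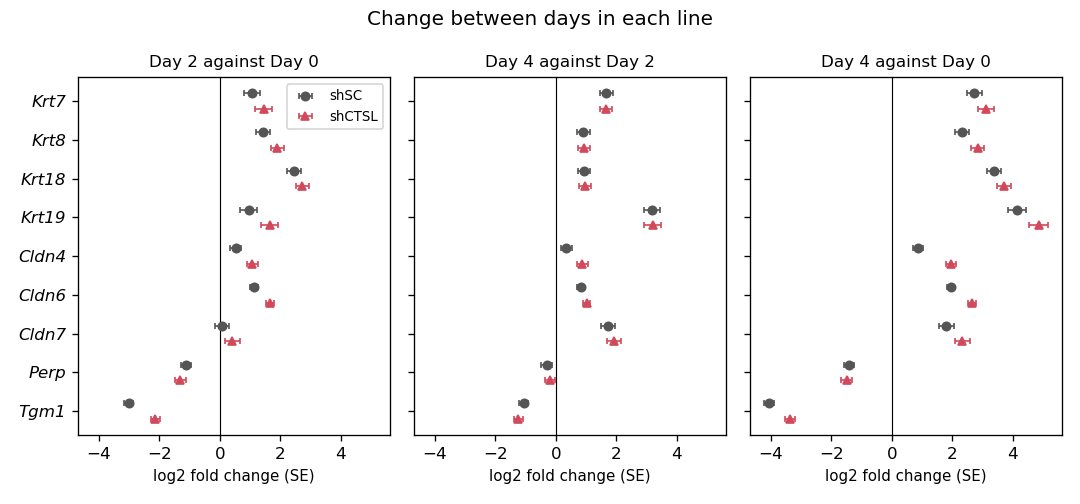
Log2 fold change between days for each gene in shSC (grey circles) and shCTSL (red triangles), with bars for the standard error of the fit. Krt19 lies at 0.96 in shSC for Day 2 against Day 0 and at 3.18 for Day 4 against Day 2, the opposite order of Krt18 with 2.46 and 0.93.

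The share of the 4-day log2 change that was reached by Day 2 orders the genes by timing. In shSC it was 78.5% for Perp, 74.1% for Tgm1 and 72.5% for Krt18. Krt8 (61.1%), Cldn4 (59.8%) and Cldn6 (57.8%) were intermediate. Krt7 (38.9%), Krt19 (23.2%) and Cldn7 (3.94%) were late. In shCTSL the same 3 genes were lowest, at 46.8% for Krt7, 34.1% for Krt19 and 17.7% for Cldn7, and Perp (87.3%) and Krt18 (73.8%) were highest. These shares carry no error of their own and were not tested against each other.

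Levels can be set against each other only per kilobase of transcript. In shSC at Day 0 the order in normalized CPM per kilobase (means of 2 libraries) was Tgm1 55.5, Cldn4 50.3, Perp 40.9, Cldn6 16.5, Krt8 14.7, Krt18 13.3, Cldn7 5.95, Krt19 4.60 and Krt7 0.332, and no neighbours in this order overlapped. At Day 2 it was led by Krt18 at 73.0 and Cldn4 at 72.3, which overlapped, followed by Krt8 at 39.5. At Day 4 Krt18 led with 139, ahead of Cldn4 (92.2), Krt19 (80.9) and Krt8 (74.0), of which Cldn4 overlapped Krt19 and Krt19 overlapped Krt8. Tgm1 had moved from the top of the order to 3.30, the lowest but Krt7 at 2.22. In shCTSL at Day 4 the leading genes were Krt18 with 234, Krt19 with 150.4, and Cldn4 with 139 and Krt8 with 138, which overlapped. The place of Krt7 is uncertain, since its level depends on which of its 5 annotated transcripts is made. The 4094 bases used here are those of the longest coding one. This limit also bears on the summed keratin ratios and on any use of the Krt7 transcript length.

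Other genes of the same families did not all follow. Of 10 other keratins that passed the filter, 4 were called higher and 4 lower at Day 4 against Day 0 in each line, with a median log2 fold change of 0.54 in shSC, against 0.03 over all genes. Over all genes 32.1% were called higher and 28.7% lower in shSC, and 32.3% and 27.6% in shCTSL. Krt17, a type I keratin of basal cells and hair follicles, fell in shSC from a mean of 67.7 normalized CPM at Day 0 to 0.583 at Day 2 and 0.136 at Day 4 (−8.90). Krt42, another type I keratin, fell from 54.1 to 4.10 and 1.39 (−5.27). Of 12 other claudins, 9 were called higher and 0 lower in each line, with a median of 2.76 in shSC. This median rests largely on genes near the floor. In shSC at Day 0 the whole list summed to 62.8 and 67.8 normalized CPM, and 8 and 3 of its genes had 0 counts. Only Cldn5 and Cldn12 had a mean of at least 10 over the 12 libraries. Cldn5, the claudin of endothelium, rose from 1.18 to 12.1 and 24.5 (4.36), while Cldn12 was at 59.9, 79.1 and 75.3 (0.33, not called).

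Among 14 other genes of tight junctions and apical polarity, 8 were called higher and 1 lower in shSC and 6 and 0 in shCTSL, with a median of 0.67 in shSC. Amot, an angiomotin at tight junctions, went from 9.76 to 176 and 96.8 (3.31), occludin (Ocln) from 4.89 to 18.6 and 26.2 (2.42), the polarity protein Crb3 from 3.65 to 14.7 at Day 4 (2.0) and the junctional adhesion molecule F11r from 69.2 to 217 (1.65). Desmosome genes went both ways, with 2 of 10 higher and 4 lower in shSC and 3 and 3 in shCTSL (median −0.44 in shSC). Beside the counts of both lists, 32.1% of all genes were higher and 28.7% lower in shSC, and 32.3% and 27.6% in shCTSL. Dsp, desmoplakin, rose from 34.5 to 583 and 580.3 (4.07) and the cadherin Dsc2 from 1.87 to 45.9 and 24.5 (3.72). The plakophilins Pkp2 (123 to 24.6, −2.32) and Pkp4 (221 to 96.9, −1.19) fell.

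Genes of epithelial adhesion and splicing were called higher in 3 of 10 and lower in 5 in shSC, and 4 and 2 in shCTSL, with a median of −0.31 in shSC and 0.11 in shCTSL. All counts in this paragraph stand beside 32.1% of all genes higher and 28.7% lower in shSC. In shCTSL these shares were 32.3% and 27.6%. In shSC, E-cadherin (Cdh1) fell from 849.8 to 465 (−0.87, against −0.57 and no call in shCTSL) and Epcam from 64.6 to 31.2 (−1.05), as did the splicing regulator Esrp1 from 42.2 to 8.89 (−2.24), whereas the protease Prss8 rose from 6.91 to 21.2 (1.61). Of 10 epithelial transcription factors 2 were higher and 4 lower in shSC, and 2 and 3 in shCTSL (median −0.50 in shSC). Klf4 (299 to 27.9, −3.42), Grhl2 (45.8 to 10.7, −2.10) and Klf5 (312 to 82.8, −1.92) fell and Elf3 rose (33.6 to 65.6, 0.97). Of 8 other transglutaminases and genes of the cornified envelope 6 were higher and 1 lower in shSC, and 7 and 1 in shCTSL, with a median of 3.20 in shSC. This median rests mostly on genes of low level. The whole list summed to 70.1 and 65.0 normalized CPM in shSC at Day 0, where 4 and 5 of its genes had 0 counts. Only Tgm2 and Cstb had a mean of at least 10 over the 12 libraries. Tgm2, tissue transglutaminase, rose from 18.6 to 132 (2.83), the opposite direction to Tgm1, and Cstb was at 29.2 and 42.6 in shSC (0.55, not called, against 0.78 and a call in shCTSL). Among 14 p53 targets 5 were higher and 3 lower in shSC and 7 and 2 in shCTSL (median 0.39 in shSC), with Cdkn1a, the CDK inhibitor p21, rising from 26.6 to 80.7 (1.6) and Trp53inp1 by 1.46, and with Pmaip1 (−1.82) and Gtse1 (−1.75) falling.

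**Figure D3:**
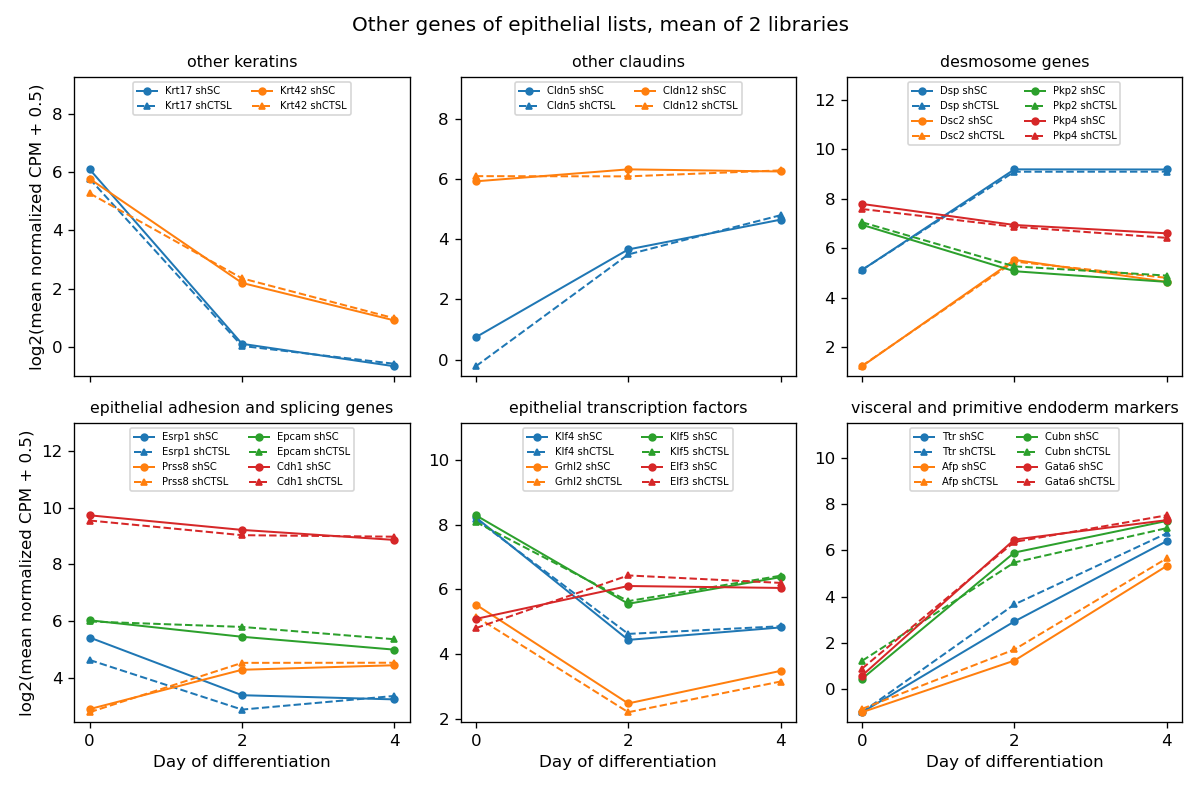
Mean normalized CPM of 2 libraries plus 0.5 (log2 scale) by day of differentiation for the genes named from 6 lists, with shSC as circles and solid lines and shCTSL as triangles and dashed lines. Keratins Krt17 and Krt42 descend from 67.7 and 54.1 in shSC at Day 0 while Dsp climbs from 34.5 to 580.3.

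Markers of other cell types that EBs can hold moved over the same days, when 32.1% of all genes were called higher and 28.7% lower in shSC. In shCTSL 32.3% were called higher and 27.6% lower. Visceral and primitive endoderm markers were higher in 9 of 10 cases in shSC and 10 of 10 in shCTSL at Day 4, with a summed level of 11.1 to 11.5 normalized CPM at Day 0 and 621 to 691 at Day 4 in shSC, and 11.9 to 13.3 and 625 to 727 in shCTSL. Gata6 went from 0.998 to 157 in shSC and Ttr, listed at 0 on Day 0, reached 83.8. Of the 6 trophoblast markers tested 4 were higher and 2 lower in each line, and their sum went from 66.2 to 66.7 to 222 to 268 in shSC and from 44.9 to 47.9 to 223 to 240 in shCTSL. In shSC Gata3 rose from 2.08 to 199 and Eomes from 3.80 to 18.9 at Day 2 and 11.1 at Day 4. Tfap2c fell from 55.7 to 23.4, and Elf5 and Tpbpa were at or near 0. Mesenchymal markers were higher in 7 of 8 cases in each line, with sums of 1218 to 1243 and 1897 to 1958 in shSC and 910 to 962 and 1761 to 1836 in shCTSL. What part the shares of these cell types have in the changes of the 9 genes was not tested.

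By Pearson correlation of log2 normalized CPM over the 12 libraries, the genes most like each of the 9 were mostly outside their families. Krt8 was nearest to Prrg2 (r = 0.991), Krt18 to Tcta (0.996), Krt19 to Ifi30 (0.989) and Krt7 to P3h4 (0.988). Cldn4 was nearest to Cldn6 (0.964), Cldn6 to Tgfbi (0.990), and Cldn7 to Vim (0.987) and then Krt19 (0.979). Perp was nearest to Apela (0.961) and Tgm1 to Bcam (0.991). Among the 7 keratins and claudins the 21 pairs had r of 0.782 to 0.986, and their 14 pairs with Perp or Tgm1 had r of −0.895 to −0.479. The 12 libraries share 3 days of differentiation, so these values are given as a description. Chromosomal neighbours differed: Krt15, next to Krt19, rose in shSC from a mean of 0.062 normalized CPM to 8.08 at Day 4 (6.74) and Cldn3, next to Cldn4, from 1.76 to 6.54 (1.87). Cldn9, close to Cldn6, was at 0.815, 2.05 and 0.473 on the 3 days, without a call at Day 4. Rabggta, next to Tgm1, fell from 95.8 to 39.1 (−1.29).

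The second comparison asked how shCTSL differed from shSC on each day. Both shCTSL libraries lay above both shSC libraries on all 3 days for Krt8 and Krt18, and at Day 4 they did so for all 7 keratins and claudins. At Day 0, by contrast, both lay below for Cldn4 and Cldn6. None of these single-day differences passed the test across all genes: edgeR called 0 of the 7 on each day, where it called 0.0386% of all genes at Day 0, 0.0644% at Day 2 and 0.0129% at Day 4. On the 3 days 1, 4 and 6 of the 7 had an unadjusted p under 0.05, against 7.26%, 19.4% and 12.2% of all genes. DESeq2 called 0, 1 and 1 of the 7 (0.309%, 0.975% and 0.902% of the genes to which it gave an adjusted p), and limma-voom with quality weights called 0, 0 and 4 (1.64%, 0% and 4.65% of all genes). Non-overlap is common with 2 libraries a group. On all 3 days shCTSL lay above shSC for 2.61% of genes, at Day 4 it lay above for 30% and at Day 0 below for 28.6%.

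At Day 0 the differences in the 7 genes ranged from −0.49 to 0.43 on the log2 scale with a median of 0.02, against −0.02 over all genes. Krt8 was at 0.39 ± 0.22 (adjusted p = 0.799) and Krt18 at 0.43 ± 0.22 (0.739), with Cldn4 at −0.49 ± 0.17 (0.537) and Cldn6 at −0.22 ± 0.13 (0.813). At Day 2 they ranged from 0.06 for Cldn4 to 0.87 for Krt8 and Krt19, with a median of 0.36 against 0.02 over all genes, and Krt8 (0.87 ± 0.21, 0.212), Krt18 (0.71 ± 0.20, 0.222), Krt19 (0.87 ± 0.26, 0.222) and Cldn6 (0.31 ± 0.12, 0.235) did not overlap between the lines, as in the 22.7% of all genes for which shCTSL lay above shSC on that day. At Day 4 they ranged from 0.32 to 0.90 with a median of 0.60, against 0.00 over all genes. Krt8 stood at 0.90 ± 0.21 (0.202), Krt19 at 0.89 ± 0.25 (0.252), Krt18 at 0.75 ± 0.20 (0.249), Cldn4 at 0.60 ± 0.17 (0.257), Cldn7 at 0.55 ± 0.22 (0.381), Cldn6 at 0.50 ± 0.12 (0.210) and Krt7 at 0.32 ± 0.20 (0.493). In the mean over the 3 days edgeR called 1 of the 7, Krt8 (0.72 ± 0.12, adjusted p = 0.0480), and 0.27% of all genes. It called Krt8 again only without replicate 2 of shCTSL Day 2 (0.83, with 7.68% of all genes called) and not when any of the other 11 libraries was left out. Krt18 (0.63 ± 0.12, 0.0574) and Krt19 (0.65 ± 0.16, 0.111) did not pass in edgeR, and Cldn4 was at 0.06. DESeq2 (0.998% of genes) and limma-voom (0.824%) called 3 in the mean, Krt8, Krt18 and Krt19.

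**Figure D4:**
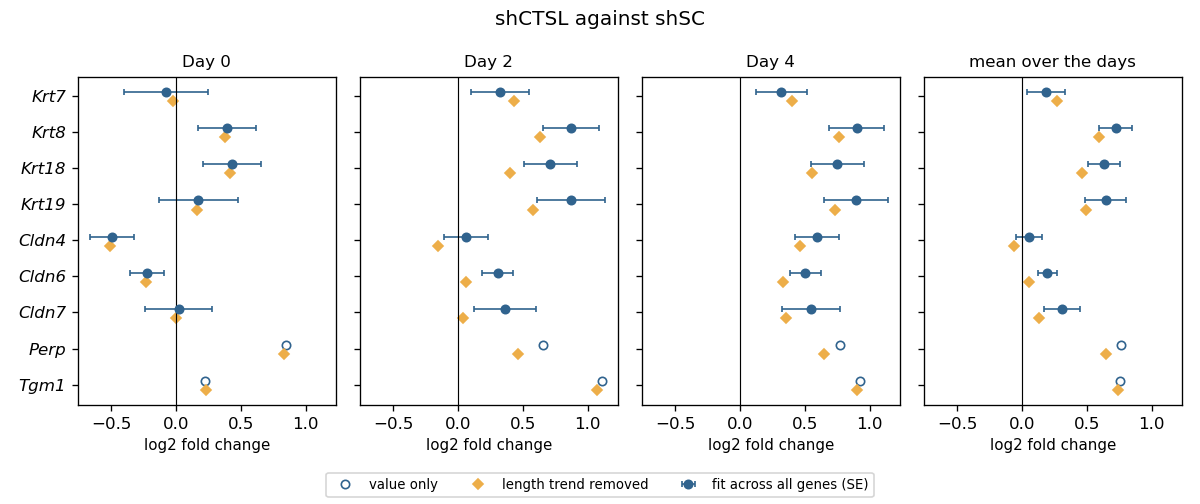
Log2 fold change of shCTSL against shSC in 4 panels, for the 3 days and their mean, as fitted across all genes (blue circles with the standard error; open circles for Perp and Tgm1, which are values only) and with the trend of each library with transcript length removed (orange diamonds). At Day 4 the 7 keratins and claudins lie right of 0, from 0.32 for Krt7 to 0.90 for Krt8.

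The shCTSL Day 2 libraries bore on these tests, also on days they do not belong to, because all libraries share 1 estimate of the spread. Without replicate 1 of that group the Day 4 differences of Krt8 (0.91, adjusted p = 2.71e-05), Krt19 (0.90, 5.19e-05), Krt18 (0.75, 0.000132) and Cldn4 (0.60, 0.00148) were called, and without replicate 2 the same 4 genes were. These fits called 5.82% and 5.83% of all genes at Day 4. At Day 2, Krt8, Krt18, Krt19 and Cldn7 were called without replicate 2 of shCTSL Day 2, where 31.6% of all genes were, and 0 of the 7 without replicate 1, where 0.604% were. When only the 4 Day 4 libraries were fitted, Krt8 (0.92, 0.000714), Krt19 (0.92, 0.000866), Krt18 (0.77, 0.00205) and Cldn4 (0.62, 0.00526) were called as well, with 4.83% of all genes. The sizes of these 4 differences were close to those from all libraries.

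Line differences also ran with transcript length. Over 15130 genes with a length, the Spearman correlation of the line difference with log2 transcript length was −0.169 at Day 0, −0.529 at Day 2 and −0.466 at Day 4, as a description over genes that share the same libraries. It was −0.277 between the 2 replicates of shCTSL Day 0, −0.645 between those of shCTSL Day 2 and 0.412 between those of shCTSL Day 4. Within the shSC groups it was 0.0459 to 0.180. Genes with transcripts of 1000 to 2000 bases, to which Krt8, Krt18, Krt19, the 3 claudins and Perp belong, had a median difference of 0.27 at Day 2 and 0.18 at Day 4. Krt7 was in the bin of 4000 to 6000 bases with a median of −0.15 at Day 4. With the trend of each library removed, a step chosen after the data were seen, the 7 genes were still all positive at Day 4, from 0.33 to 0.77 with a median of 0.46. Krt8 was then called at Day 4 (0.77, adjusted p = 0.0358), with 0.47% of all genes, and Krt18 (0.56, 0.0479) was under the fold threshold. In the mean over the days Krt8 was called (0.59, 0.00429), with 0.412% of all genes, while Krt18 (0.46, 0.00555) and Krt19 (0.49, 0.0330) passed in p but not in fold. At Day 2 the Cldn4 difference changed sign, from 0.06 to −0.15.

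**Figure D5:**
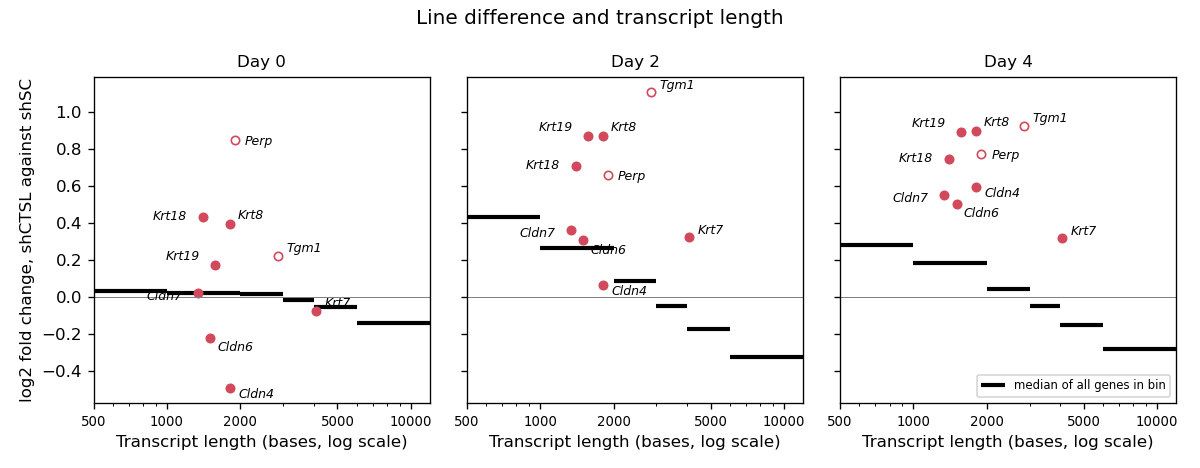
Log2 fold change of shCTSL against shSC for the 9 genes against transcript length in bases (log axis) on each day, with black bars for the median of all genes in a length bin and open circles for Perp and Tgm1. At Day 4 the medians step down from 0.28 under 1000 bases to −0.28 over 6000 bases. The 7 keratins and claudins lie above the median of their bin on that day. Perp and Tgm1 were picked for being higher in shCTSL, so their places are not counted.

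Perp and Tgm1 were chosen on the line difference, so their values are a description. Perp was 0.85 higher in shCTSL on the log2 scale at Day 0, 0.66 at Day 2 and 0.77 at Day 4. Tgm1 was 0.22 higher at Day 0, 1.11 at Day 2 and 0.93 at Day 4. For both genes the lines did not overlap on any of the 3 days, as for 2.61% of all genes. This is not counted here, since both were picked for being higher in shCTSL. With the length trend removed Perp was at 0.84, 0.46 and 0.65 and Tgm1 at 0.23, 1.07 and 0.90. In these values, which served for the choice, the Perp difference was there in undifferentiated cells. Most of the Tgm1 difference was seen in EBs, when the gene was low. Of the 14 other p53 targets, the class to which Perp belongs, 10 were positive at Day 0, 8 at Day 2 and 12 at Day 4. Their medians were 0.13, 0.21 and 0.25, against −0.02, 0.02 and 0.00 over all genes. The length trend was not removed from these medians. At Day 4 edgeR called 0 of them (0.0129% of all genes). An unadjusted p under 0.05 was found for 7 (12.2% of all genes). DESeq2 called 1 (0.902%) and limma-voom 0 (4.65%). Over all 120 tested genes of the lists, edgeR called 0 between the lines at Day 4, with 28 at an unadjusted p under 0.05 (12.2% of all genes), 4 by DESeq2 (0.902%) and 10 by limma-voom (4.65%).

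The last comparison was the interaction, that is whether the change between days differed between the lines. For Day 4 against Day 0 it was positive for all 7 keratins and claudins, from 0.31 to 1.09 with a median of 0.53, against 0.02 over all genes. This interaction also ran with transcript length (Spearman correlation −0.285). Genes of 1000 to 2000 bases, the bin of all 7 but Krt7, had a median of 0.16. The value was largest for Cldn4 (1.09 ± 0.24, adjusted p = 0.492), followed by Cldn6 (0.72 ± 0.18, 0.546) and Krt19 (0.72 ± 0.39, 0.779). edgeR called 0 of the 7, where it called 0.00644% of all genes. An unadjusted p under 0.05 was found for 2 of them (6.71% of all genes), and DESeq2 called 1 (0.195%) and limma-voom 2 (0.837%). Both shCTSL libraries of Cldn4 lay below shSC at Day 0 and above it at Day 4. Without replicate 1 of shCTSL Day 2, a group not in this interaction, Cldn4 (1.08, adjusted p = 0.00364) and Cldn6 (0.71, 0.0172) were called, and without replicate 2 so were Cldn4 (0.00379) and Cldn6 (0.0163). These fits called 1.63% and 1.69% of all genes in this interaction. With the length trend removed Cldn4 was at 0.97 (0.108). For Day 2 against Day 0 the values ranged from 0.28 to 0.70, against medians of 0.04 over all genes and 0.25 over genes of 1000 to 2000 bases. For Day 4 against Day 2 they ranged from −0.01 to 0.53, where these medians were −0.02 and −0.09. In each of these 2 interactions edgeR called 0% of all genes and 0 of the 7. An unadjusted p under 0.05 was found for 2 of the 7 in the first (11% of all genes) and 0 in the second (4.85%). DESeq2 (0.407% and 0.0819% of genes) and limma-voom (0.0129% and 0%) called 0 of the 7 in both. Without replicate 2 of shCTSL Day 2 the first had 5 calls (Krt8, Krt18, Krt19, Cldn4 and Cldn7), where 26% of all genes were called, and without replicate 1 the second had 2 (Cldn4 and Cldn7), where 3.57% were.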

How the data were processed

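RNA was measured as poly(A)-selected, directional libraries. Per the study's methods, the authors checked the reads with FastQC 0.11.2, aligned them to mm9 with STAR 2.3.0e, removed with SAMtools 0.1.19 alignments of low mapping quality, mitochondrial reads and contigs outside the chromosomes, and used featureCounts 1.6.2 to count reads over RefSeq genes. The deposited values are whole-number counts, not normalized, for 24495 genes. The loss of reads with low mapping quality can lower the counts of genes that resemble another gene, such as keratins of one type.

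The quasi-likelihood test of edgeR 4.0.16 (R 4.3.3) was run on these counts after TMM normalization, in 1 fit of all 12 libraries with 6 residual degrees of freedom, for genes that passed filterByExpr (minimum count 10). p-values were adjusted over the 15532 genes tested (Benjamini-Hochberg), and a call needed an adjusted p under 0.05 and a difference of 1.5-fold or more (0.585 in log2). The fit was tested on simulated data. Depth was 11171111 to 27155553 counts, and 2 libraries a group limit the precision of each spread. Alternatives were DESeq2 1.42.0, limma-voom (limma 3.58.1), other filters, scalings and cutoffs, a replicate block and each library left out. Removal of each library's trend with transcript length was added after seeing the data.

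The members and lists were chosen with earlier results of these data known. Named were the 9 genes, Ctsl, up to 4 genes of each list with a mean of at least 10 normalized CPM and the largest change in shSC between Day 0 and Day 4, the 3 genes most correlated with each of the 9 (of which the first is given, and any that is one of the 9), and chromosomal neighbours. Elf5 and Tpbpa are named as markers near 0. Positions come from GENCODE M1 (mm9), which held 20561 genes by symbol and 1660 under a synonym. Promoter windows come from RefSeq. The ChIP-seq data were not used here.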

Additional observations from a re-analysis of the deposited data

How the results depend on the processing

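Of 129 counts of called genes under other settings, 109 stayed within 1.5 times the reported count and 20 did not. Of 396 values for Day 4 against Day 0, 393 kept their call, and the other 3, Cldn4 in shSC and Perp in both lines, were under a cutoff of 1.5 on the log2 scale. That cutoff left 2 of the 9 genes at Day 2 against Day 0 and 3 at Day 4 against Day 2 in shSC, 5 and 3 in shCTSL, and 0 of the 7 keratins and claudins in the mean line difference. Fitting only the groups compared gave 5 at Day 4 against Day 2 in shCTSL, without Krt8, Krt18 and Cldn4.

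For the 7 keratins and claudins between the lines, DESeq2 called 1 at Day 2, 1 at Day 4, 3 in the mean and 1 in the Day 4 against Day 0 interaction. Without a filter on low counts there were 1, 2 and 3 at Day 2, at Day 4 and in the mean. Only the groups compared gave 4 at Day 4 and 2 in the interaction, and limma-voom gave 4 at Day 4, 3 in the mean and 2 in the interaction. Removing the length trend gave 1 at Day 4, and turned Cldn4 at Day 2 to −0.15 and in the mean to −0.064, and Krt18 in the Day 2 against Day 0 interaction to −0.019. The causes were not tested.

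Leaving out 1 library gave 0 to 3 in the mean, 0 to 4 at Day 2, 0 to 4 at Day 4, and 0 to 5, 0 to 2 and 0 to 2 in the interactions of Day 2 against Day 0, Day 4 against Day 0 and Day 4 against Day 2. The upper ends came without replicate 2 of shCTSL Day 2, for Day 4 and the Day 4 against Day 0 interaction also without replicate 1, and for the Day 4 against Day 2 interaction only without replicate 1. Signs turned within these ranges: Cldn4 from −0.13 to 0.24 at Day 2 and −0.028 to 0.12 in the mean, Cldn7 from −0.20 to 0.18 at Day 0 and −0.11 to 0.74 at Day 2, Krt19 from −0.11 to 0.37 and Krt7 from −0.53 to 0.20 at Day 0. Cldn7 ranged from −0.032 to 0.79 at Day 2 against Day 0 in shCTSL. In the interactions Cldn7 ranged from −0.15 to 0.71 (Day 2 against Day 0) and −0.19 to 0.66 (Day 4 against Day 2), Krt18 from −0.14 to 0.59 (Day 2 against Day 0) and Perp from −0.31 to 0.22 (Day 4 against Day 0). Those at Day 0 turned without a library of Day 0, Perp without replicate 1 of shSC Day 4, and the others without replicate 1 or 2 of shCTSL Day 2, or, for Cldn4 in the mean, also without replicate 1 of shCTSL Day 0.

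A replicate block gave 0 in the mean (Krt8 0.72, adjusted p = 0.0745) and moved no other count of these genes by over 1.5 times. The deviations of samples with the same number correlated by −0.297 to 0.115 over 15 pairs of groups, so no pairing by replicate number was seen. Weak correlations cannot exclude a pairing, because each library's own trend with transcript length enters the same deviations. A shared culture or batch was not tested. Depth limits Krt7 most, with as few as 9 counts in a library. Every group has 2 libraries, and the line comparison rests on 1 shCTSL line.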
